A study of Mus musculus with 2 samples.

Results

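A set of 36 genes of mitosis and of the G2 to M phase transition were followed across the cells of newborn Chrm3 KO epidermis. The genes are a list of symbols set up with earlier results of these data known, and each of the 36 matched 1 of the 27998 genes in the count tables. The libraries came from the epidermis of 2 male Chrm3 KO mice of the C57BL/6J strain at postnatal day 0, with 1 library per mouse, called KO mouse 1 and KO mouse 2. Chrm3 encodes the M3 muscarinic acetylcholine receptor. The wild-type libraries of the study were not analysed here, so each value is a level in KO epidermis, and the comparisons are between classes of cells within these mice. The epidermis had been separated from the dermis after overnight incubation, and dead cells had been removed before single-cell RNA sequencing.

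A cell that divides first copies its DNA in S phase and then, in G2 and M phase, builds a spindle, attaches each chromosome to it, pulls the copies apart and splits the cell. The proteins of these steps are made anew in each cycle, because many of their genes are switched on late in S and in G2 and many of the proteins are destroyed at the end of mitosis. In skin, division takes place in the basal layer of the interfollicular epidermis (IFE), in the growing hair follicle and among melanocytes and immune cells, whereas keratinocytes that leave the basal layer stop dividing as they begin to make Krt10 and then the proteins of the cornified envelope.

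Promoters of genes with this timing are known to share a CCAAT box, the site of the factor NF-Y, and an element called CHR, with the letters TTTGAA in its common form and TTCGAA in a rarer one, which binds the DREAM and MMB complexes. RefSeq promoters on GRCm38.p6, each running from 250 bases before the start of the gene to 50 bases after it, were held for 30 of the 36 genes and for 27025 genes in all. On either strand, CCAAT was found in 23 of the 30 genes (76.7%) and in 41.1% of all genes. Either form of CHR was found in 24 of them (80%), against 21.7% of all genes, and both elements together in 20 (66.7%), against 8.61%. The stretches below run from 150 bases before the start to 20 bases after it and are shown for Ube2c, Cdc20, Cdk1 and Top2a, which hold both elements here, for Cks2, which holds CCAAT alone, and for Nuf2 and Birc5, which hold neither. Capitals mark the CCAAT box and both forms of CHR on either strand. A CCAAT box on the other strand appears as ATTGG, and the common form of CHR on the other strand as TTCAAA. The stretch of Ube2c is chr2:164769779-164769948 (plus strand), that of Cdc20 chr4:118437324-118437493 (minus strand), that of Cdk1 chr10:69352893-69353062 (minus strand), that of Top2a chr11:99024170-99024339 (minus strand), that of Cks2 chr13:51645082-51645251 (plus strand), that of Nuf2 chr1:169531445-169531614 (minus strand) and that of Birc5 chr11:117849087-117849256 (plus strand).
Ube2c: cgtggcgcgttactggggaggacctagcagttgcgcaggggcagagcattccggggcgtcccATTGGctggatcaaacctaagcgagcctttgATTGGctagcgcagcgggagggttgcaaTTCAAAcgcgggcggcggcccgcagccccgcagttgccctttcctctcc
Cdc20: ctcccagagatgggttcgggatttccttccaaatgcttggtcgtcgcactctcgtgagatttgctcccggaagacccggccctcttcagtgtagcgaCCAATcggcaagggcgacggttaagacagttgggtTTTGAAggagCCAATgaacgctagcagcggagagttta
Cdk1: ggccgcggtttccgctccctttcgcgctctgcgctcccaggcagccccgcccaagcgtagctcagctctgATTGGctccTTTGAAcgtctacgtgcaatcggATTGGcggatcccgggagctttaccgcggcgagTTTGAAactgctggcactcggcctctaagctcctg
Top2a: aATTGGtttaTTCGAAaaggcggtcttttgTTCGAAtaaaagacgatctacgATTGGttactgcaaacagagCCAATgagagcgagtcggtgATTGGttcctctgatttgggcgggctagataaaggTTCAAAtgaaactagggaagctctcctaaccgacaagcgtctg
Cks2: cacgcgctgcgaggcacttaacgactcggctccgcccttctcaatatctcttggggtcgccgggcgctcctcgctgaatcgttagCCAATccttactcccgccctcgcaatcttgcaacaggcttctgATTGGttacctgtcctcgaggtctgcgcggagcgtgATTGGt
Nuf2: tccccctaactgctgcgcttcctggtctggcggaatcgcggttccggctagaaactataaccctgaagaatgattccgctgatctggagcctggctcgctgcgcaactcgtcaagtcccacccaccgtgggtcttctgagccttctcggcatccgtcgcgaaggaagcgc
Birc5: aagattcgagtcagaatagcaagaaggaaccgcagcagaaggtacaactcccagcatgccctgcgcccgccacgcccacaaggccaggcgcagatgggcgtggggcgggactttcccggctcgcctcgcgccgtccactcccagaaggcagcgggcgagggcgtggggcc
In Cdk1 the element closest to the start is a TTTGAA whose first base is at position -15, with the nearest CCAAT box at -48. The same order holds in Ube2c, with the positions -29 and -57, and in Top2a, with -23 and -58. Cdc20 has the reverse order, with a CCAAT box at -8 and TTTGAA at -18. TTCGAA reads the same on both strands and was counted once per place, and none of the searched letters overlap each other in the stretches shown. No match means only that these letters are not in the window. Birc5 and Nuf2 hold none of them here. Their levels also differed between the states of the cell cycle, but the score that those states were read from uses many of the 36 genes. Whether the elements bear on these levels was not tested. Tpx2, Ccna2, Aurkb, Smc4, Dlgap5 and Cdc25c are the members that had no entry in the table.

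KO mouse 1 had 10816 barcodes and KO mouse 2 15867, with 109756784 and 166441732 UMIs (unique molecular identifiers, 1 per captured transcript). Of these, 7607 and 11881 cells had 900 to 7700 genes and under 10% mitochondrial UMIs and were kept, with medians of 10480 and 10577 UMIs. The 36 genes together gave 265415 and 392662 UMIs in the kept cells, or 2792 and 2638 CPM (UMIs of a gene scaled to the same total of UMIs in every class, the usual counts-per-million scale). Chrm3 itself had 13 and 19 UMIs. The libraries shared 127 cell barcodes, of which 34 were kept in both, and cells with the same barcode resembled each other about as much as cells with different ones (median correlation of log counts 0.682 against 0.679).

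Cells were clustered 2 times. In the first clustering the 36 genes were left out of the variable genes, and clusters of dividing cells formed from other cell cycle genes. In the second, the 36 genes and the other cell cycle genes were left out and the cell cycle scores were regressed out, so that dividing and resting cells of a lineage came closer together. Some hair follicle-like clusters of the second clustering still held mostly cells with these transcripts (in 1 of them 91 and 94.8% of cells had at least 5 of the genes). Classes were named "like" a cell type from marker genes. Of the listed markers of T cells, only 7 had a symbol in the count tables, and each of these was detected in the T cell-like cells of both mice. Each of the 9 markers of melanocytes was detected in the melanocyte-like cells. The same lists gave the names, and any UMI in a class counted as detected. The follicle name, and that of part of the basal IFE-like class, rested on less. In the largest dividing follicle-like cluster of the first clustering, 1 follicle marker (Lhx2) was among the leading genes. The mean log2 level of the follicle markers there, against all other cells, was -0.034, and that of the basal IFE markers -0.967. Over the follicle-like clusters of the second clustering the follicle mean ran from -0.46 to 0.76. In 1 of them it was -0.40, as was that of the basal IFE markers. Of the basal IFE-like clusters of the second clustering, 1 had 9 basal markers among its leading genes and the others 1 each (Wnt4 and Krt5). In the cluster with Krt5 (489 and 866 cells) the basal mean was 0.34, and the 36 genes summed to 4555 and 4252 CPM. The sums were 255 and 480 CPM in the cluster with Wnt4 and 2190 and 1985 CPM in the one with 9 markers. The second clustering gave 1709 and 3021 basal IFE-like cells, 547 and 783 suprabasal IFE-like, 3887 and 5768 hair follicle-like, 437 and 739 melanocyte-like, 145 and 193 Langerhans cell-like, 52 and 38 T cell-like and 50 and 64 granular-like cells. Where 2 values stand together below, the first is of KO mouse 1 and the second of KO mouse 2.

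Within the basal IFE-like cells of the first clustering, the 36 genes were lowest in resting clusters, higher in an S-led and highest in a G2/M-led cluster. The states were read from the phases that the cells were scored in, and the G2/M score uses many of the same genes, so the contrast is a description with no test. Their summed level was 241 and 262 CPM in the resting clusters, 691 and 654 CPM in the S-led cluster and 8886 and 8192 CPM in the G2/M-led cluster. In the hair follicle-like cells the sum was 2187 and 1883 CPM in the S-led and 8185 and 7564 CPM in the G2/M-led cluster, and 751 and 687 CPM in the other clusters that were not dividing by name. Those follicle clusters were not all at rest, since 38.3% and 35.1% of the cells were scored in S phase in 2 of them, against 2.37% and 6.41% in the resting IFE clusters. Replication genes, which are no members, had their highest summed level in the S-led cluster of the IFE (2831 and 2931 CPM, against 2234 and 2336 CPM in the G2/M-led and 818 and 944 CPM in the resting clusters). In the follicle they were highest in the G2/M-led cluster (3172 and 3250 CPM, against 3001 and 3100 CPM in the S-led and 1585 and 1864 CPM in the other clusters), so the name S-led rests there on the scored phases alone. The median over the 36 genes of the ratio of G2/M-led to resting levels was 48.2 in the IFE. In the follicle the other clusters were pooled, although they differed in their phases. Among them, the cluster led by Ncam1 and Bdnf had 5.55% of its cells scored in S phase and 1.46% in G2/M phase. This S share lies between those of the resting IFE clusters. The 36 genes summed to 366 and 338 CPM in that follicle cluster. The ratio of G2/M-led levels to that cluster alone was not computed, so no follicle median is set beside that of the IFE.

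**Figure D1:**
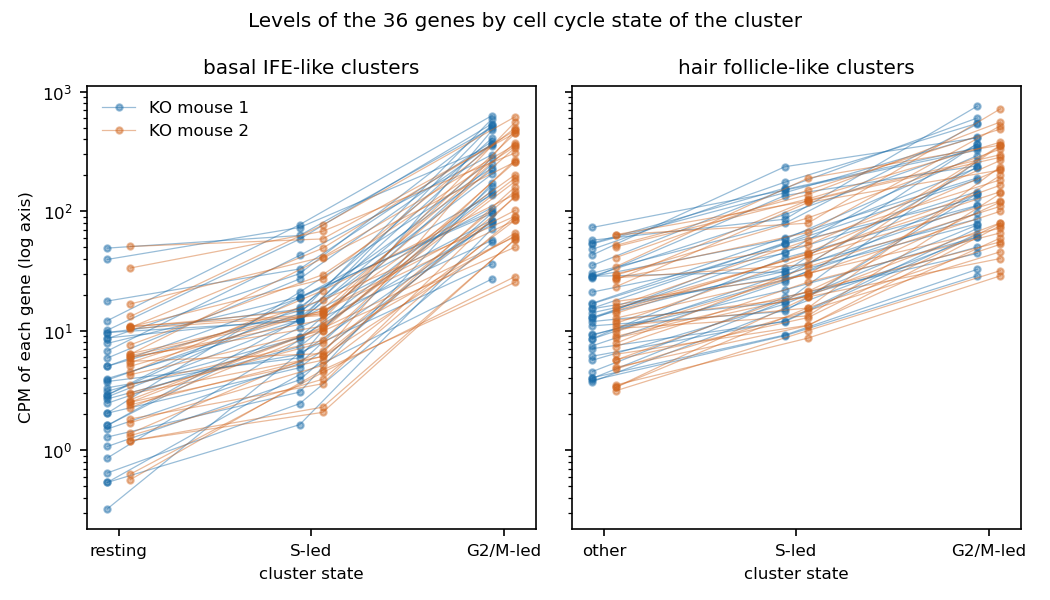
Level of each of the 36 genes (CPM, log axis, floor of 3 counts) in resting, S-led and G2/M-led clusters of basal IFE-like cells (left) and in other, S-led and G2/M-led clusters of hair follicle-like cells (right), 1 line per gene, blue for KO mouse 1 and orange for KO mouse 2. The lines climb most between the S-led and the G2/M-led state in the IFE, and those of the follicle start higher, in clusters that are not all at rest.

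The kinase Cdk1, which drives entry into mitosis, stood at 6.76 and 6.36 CPM in resting, 42.7 and 40.4 CPM in S-led and 298 and 259 CPM in G2/M-led IFE clusters. Its cyclin partners followed different courses. Ccna2, the cyclin of S and G2 phase, was already at 18.8 and 21.7 CPM in the S-led cluster and reached 137 and 139 CPM, levels 7.29 and 6.39 times as high. Ccnb1, the main mitotic cyclin, went from 8.78 and 10.03 CPM to 248 and 258 CPM, levels 28.3 and 25.7 times as high. For Ccnb2, the other B-type cyclin measured here, the level was 30.7 and 28.3 times as high. Cks2, a small protein that binds CDK1, had the most transcripts left in resting cells of this group, with 49.1 and 50.7 CPM in resting and 499.8 and 451 CPM in G2/M-led cells. Cdc25c, the phosphatase that activates CDK1, was 22.4 and 28.3 times as high in the G2/M-led as in the S-led cluster, and Cdca3, a trigger of mitotic entry, 27.1 and 24.6 times.

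The steepest steps from the S-led to the G2/M-led cluster were those of Ube2c, Hmmr and Cenpf. Ube2c, the enzyme that hands ubiquitin to the anaphase-promoting complex, had 5.92 and 6.43 CPM in the S-led cluster and 477 and 479 CPM in the G2/M-led cluster, the largest ratio of the 36 (80.5 and 74.6 times). Cdc20, which switches that complex on, was 29.1 and 25.4 times as high. Hmmr, a spindle protein, was 55.9 and 37.3 times as high, and Cenpf, a protein of the outer kinetochore, 42.7 and 45.4 times. The checkpoint kinase Bub1 was 5.37 and 5.05 times as high at this step. It was already at 10.6 and 9.92 CPM in the S-led cluster against 1.61 and 2.27 CPM in resting cells. Ndc80 and Nuf2, partners in the complex that grips the microtubule, showed the same early start, with levels 6.77 and 5.85 times as high for Ndc80 and 6.32 and 5.42 times for Nuf2. Dlgap5, a spindle protein, was 5.33 and 5.02 times as high. Anln, the anillin of the cleavage furrow, took a step as small (5.0 and 5.76 times) from 7.83 and 6.42 CPM in resting and 19.2 and 14.6 CPM in S-led cells.

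Other groups lay between. Among the mitotic kinases, Plk1 was 24.9 and 23 times as high and Aurka, a kinase of the spindle poles, 17 and 16.4 times. In the chromosomal passenger complex, the kinase Aurkb went from 0.858 and 1.38 CPM in resting cells to 149 and 148 CPM, Birc5 (survivin) from 8.58 and 10.8 CPM to 522 and 499.8 CPM, and Cdca8 (borealin) from 5.90 and 7.61 CPM to 367 and 350.5 CPM. The ratio of Aurkb to its resting level was the largest of the 36 (mean of the mice 140.0). The genes of chromosome structure took smaller steps from the S-led to the G2/M-led cluster than most of the 36. Smc4, a subunit of condensin, had 39.5 and 33.5 CPM in resting, 73.1 and 68 CPM in S-led and 353 and 308 CPM in G2/M-led cells. In the mean of the mice, its ratios of G2/M-led to S-led and to resting levels were the smallest of the 36. Top2a, the topoisomerase that untangles copied DNA, had 77.1 and 76.6 CPM and 633 and 618 CPM in the S-led and the G2/M-led cluster, and Mki67, the usual marker of proliferation, 58.4 and 49 CPM and 539.8 and 476 CPM.

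The follicle differed in its S-led cluster. Of the cells in this cluster 28.3% were scored in G2/M phase, against 0.669% in the S-led IFE cluster, so these clusters are not like states. Cdc20 stood at 135 and 119 CPM in the S-led follicle cluster, against 12.7 and 13.4 CPM in the S-led IFE cluster. Cenpa, the histone of the centromere, stood at 236 and 189 CPM against 12 and 13.7 CPM. Their levels in the G2/M-led follicle cluster were 1.77 and 1.87 times as high for Cdc20 and 1.74 and 1.89 times for Cenpa. Other genes of the same steps were nearly as low as in the IFE. Prc1, the bundler of the central spindle, stood at 31.1 and 35.8 CPM in the S-led follicle and 32.9 and 41.3 CPM in the S-led IFE cluster, and the spindle protein Nusap1 at 17.4 and 15.5 CPM and 12 and 8.28 CPM. For Nusap1 the G2/M-led level was 15.1 and 15.2 times the S-led one, and for Aurkb 9.67 and 10.6 times. The S-led follicle cluster was thus mixed in its members' levels. Of its cells, 69.3 and 69.3% had at least 5 of the 36 genes, against 38.6 and 45.5% in the IFE.

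Suprabasal IFE-like cells, which make Krt10, had lower levels of all 36 genes than basal IFE-like cells. Every comparison between lineages used the second clustering, UMI sums per mouse and the edgeR quasi-likelihood test with Benjamini-Hochberg adjustment over 13101 genes. In this comparison 36 of 36 were called lower (adjusted p under 0.05), with a median log2 fold change of -1.90. Over all genes, 20.4% were called lower and 24.3% higher, with a median of 0.03. In none of the 36 did the values of the mice overlap between the classes, but the share of all genes without overlap was not counted. TMM scaling, which sets the classes to a common level of most genes, moved log2 fold changes by 0.24 against plain CPM here, by 0.41 for Langerhans cell-like and by -0.14 for hair follicle-like cells, and by less than these in the other comparisons.

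Nusap1, which binds microtubules near chromosomes, had 71.5 and 69.2 CPM in basal and 8.19 and 12.1 CPM in suprabasal cells, and its log2 fold change was the largest of the 36 (-2.53 ± 0.16 (SE), adjusted p = 2.28e-11). Kif11, the motor that parts the spindle poles, came next (-2.27 ± 0.21 (SE), adjusted p = 8.32e-09), and Cdk1 had 86.3 and 77.5 CPM against 11.9 and 17.7 CPM (-2.21 ± 0.20 (SE), adjusted p = 4.71e-09). For Ube2c the levels were 116 and 118 CPM and 16.9 and 27.1 CPM (-2.16 ± 0.26 (SE), adjusted p = 3.73e-07), and for Aurkb 39 and 39.3 CPM and 6.65 and 8.73 CPM (-2.09 ± 0.17 (SE), adjusted p = 1.02e-09). Both mice were lower in each of these genes. The smallest differences were those of Ttk, a checkpoint kinase with 10.6 and 8.38 CPM and 4.14 and 3.76 CPM (-1.02 ± 0.21 (SE), adjusted p = 0.000421), of Cks2 with 158 and 149.8 CPM and 60.6 and 66.9 CPM (-1.03 ± 0.16 (SE), adjusted p = 1.08e-05) and of Smc4 (-1.42 ± 0.15 (SE), adjusted p = 3.43e-08). Within the other role groups the range was narrow, from -1.61 (Ndc80) to -1.97 (Cenpf) at the kinetochore and from -1.65 (Kif20b, a kinesin of cytokinesis) to -2.07 (Ect2, the activator of RhoA at the cleavage furrow) in cytokinesis.

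The class held a pair of clusters at different stages. In the larger one, where Krt14 (11908 and 14023 CPM) and Krt10 (8892 and 7527 CPM) were both high, the 36 genes summed to 636 and 805 CPM. The smaller one had little Krt14 (695 and 1125 CPM) and much Krt10 (34863 and 33122 CPM), and its sum was 233 and 279.8 CPM, near that of resting basal clusters. Of the suprabasal cells with at least 5 of the genes, 20.9 and 20% were called doublets, against 0.439 and 0.796% of the others. The former were also deeper, with medians of 24619 and 25648 UMIs against 14832 and 13599, and the part of depth in this contrast was not tested. Without called doublets, 36 of 36 were still lower (background 20.8%), with a median of -2.38.

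Langerhans cells are the resident antigen-presenting cells of the epidermis. The class like them was named from 12 of 13 listed markers, with Cd74, C1qa and C1qb among the 12. Cd207, which encodes langerin, was the marker missing from its leading genes. Whether these cells are Langerhans cells, their precursors or other myeloid cells was not tested. Langerhans cell-like cells also had lower levels, with 956 and 1111 CPM for the sum of the genes against 2413 and 2278 CPM in basal cells. Of the 36 genes, 24 were lower and none higher, with a median log2 fold change of -0.76. Over all genes 20.7% were lower and 29.3% higher, and the median was 0.03. Genes of cytokinesis were all lower (5 of 5), led by Ect2 with 21.6 and 18.5 CPM in basal and 1.90 and 5.58 CPM in Langerhans cell-like cells (-1.90 ± 0.37 (SE), adjusted p = 0.000173). Ect2 rested on only 3 and 12 UMIs there. Prc1 (-1.61 ± 0.23 (SE), adjusted p = 3.21e-06) and Cdc20, with 91.3 and 88.9 CPM and 18.3 and 24.2 CPM (-1.64 ± 0.24 (SE), adjusted p = 4.01e-06), were lower too.

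The fall was uneven. Only 1 of 5 kinetochore genes was called, Cenpf, with 149 and 138 CPM and 51.2 and 44.2 CPM (-1.18 ± 0.30 (SE), adjusted p = 0.00191). For the motor Cenpe the 95% interval of the log2 fold change was -0.63 to 0.24, and for Ccnb2, with 41 and 41 CPM and 29.1 and 34.9 CPM, it was -0.55 to 0.70. In plain CPM, without the TMM shift, all 36 genes were lower in both mice, Ccnb2 included. That shift raised log2 fold changes by 0.41 here, so genes in general lie lower in plain CPM. The share of all genes lower in plain CPM was not counted, so this count has no background beside it. Called doublets made up 39.1 and 34.1% of the cells with at least 5 of the genes and 3.28 and 4.70% of the others. Krt14 with Krt5 summed to 2858 and 3022 CPM in the former and 724 and 1713 CPM in the latter. The former had medians of 14354 and 13980 UMIs and the latter of 9245 and 9292. With called doublets left out, 26 genes were lower (background 23.6%), with a median of -0.97. Without integration of the mice, 4 were lower (background 20%). In that setting the sums in Langerhans cell-like cells stayed at 956 and 1111 CPM, and those in basal IFE-like cells were 1469 and 1509 CPM.

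T cell-like cells had higher levels of part of the genes, on few UMIs. The genes summed to 4701 and 2591 CPM, from 2627 and 1071 UMIs of the 36 genes. Of the 36, 16 were called higher and 1 lower, against 16.8% and 14.8% of all genes, and the median was 0.67 against -0.09. The largest were Ccnb2, with 156 and 55.7 CPM (1.44 ± 0.33 (SE), adjusted p = 0.00140), and Mki67, with 153 and 135 CPM in basal and 404 and 339 CPM in T cell-like cells (1.37 ± 0.18 (SE), adjusted p = 1.74e-06). Birc5 (1.09 ± 0.21 (SE), adjusted p = 0.000259) and the checkpoint kinase Bub1b (1.11 ± 0.27 (SE), adjusted p = 0.00249) were also higher. By role, 5 of 6 spindle genes and 3 of 5 kinetochore genes were called. Anln went the other way, with 32.3 and 28.1 CPM and 10.7 and 7.26 CPM (-1.70 ± 0.41 (SE), adjusted p = 0.00238), on 6 and 3 UMIs.

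The mice differed in these cells. Ccnb1 was at 102 and 16.9 CPM (57 and 7 UMIs), and Cenpf at 319 and 99.2 CPM. In KO mouse 1 alone the median log2 fold change of the 36 genes was 0.77 and in KO mouse 2 alone 0.040. Mki67 and Dlgap5, the latter with 73.4 and 53.2 CPM against 31.4 and 29.5 CPM in basal cells, were higher in both mice. With the limit on mitochondrial UMIs at 5%, 0 of 36 genes were called higher (background 14.7%) and the median was -0.039. In that setting the genes summed to 5373 and 2699 CPM in T cell-like cells. In basal IFE-like cells the sums were 4781 and 3833 CPM, against 2413 and 2278 CPM without that limit. With called doublets left out, 8 were called higher (background 15.9%). Krt14 with Krt5, which T cells do not make, summed to 2363 and 3438 CPM in the T cell-like cells with at least 5 of the genes and to 144 and 4595 CPM in the others, and their part in the result was not tested.

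Hair follicle-like cells had more of these transcripts than basal IFE-like cells, but the direction depended on the limit on mitochondrial UMIs. The sums were 3640 and 3379 CPM against 2413 and 2278 CPM. Of the 36 genes 20 were called higher and none lower, against 18.5% and 15.5% of all genes, with a median log2 fold change of 0.43 against 0.01. All 3 genes of the chromosomal passenger complex were called, 4 of 5 of the kinetochore and 4 of 5 kinases. Ndc80 had 23.1 and 19.1 CPM in basal and 43.7 and 37.1 CPM in follicle cells (0.80 ± 0.14 (SE), adjusted p = 0.000114), Mki67 153 and 135 CPM and 281 and 267 CPM (0.79 ± 0.15 (SE), adjusted p = 0.000278), and Bub1 16.8 and 16 CPM and 31.3 and 29.2 CPM (0.74 ± 0.17 (SE), adjusted p = 0.00179). Ccna2 (0.68 ± 0.19 (SE), adjusted p = 0.00778) and Birc5 (0.64 ± 0.17 (SE), adjusted p = 0.00629) were higher as well.

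Of the genes of cytokinesis 2 of 5 were called, Kif23 and Kif20b. Neither Ube2c (95% interval -0.35 to 0.60) nor Cdc20 (-0.06 to 0.59) was called, and Ect2 had 21.6 and 18.5 CPM and 23.1 and 20.9 CPM (interval -0.55 to 0.55). Anln, with 32.3 and 28.1 CPM in basal and 28.2 and 26.6 CPM in follicle cells, had a log2 fold change of -0.28. It was called lower when the mouse was entered as a block, a fit in which 28 of 36 were called higher. The share of all genes called higher in that fit is not given, so this count has no background beside it.

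Basal IFE-like cells under 5% mitochondrial UMIs held far more of these transcripts than the rest of the class. Their summed level was 5486 and 4246 CPM, against 2066 and 1604 CPM at or over 5%. They were 9.48 and 25.1% of the basal cells, whereas 47.2 and 65.9% of the follicle cells lay under 5%, with 3710 and 3592 CPM below the limit and 3579 and 2977 CPM above it. With cells under 5% clustered again, 0 of 36 genes were higher in the follicle and 7 lower (background 8.1%), and the median was -0.49. In that setting Cdc20 was at -0.70 ± 0.20 (SE), adjusted p = 0.0177, and Mki67 at 0.03 ± 0.30 (SE), adjusted p = 0.985. The part of the mitochondrial share in the difference was not tested.

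**Figure D2:**
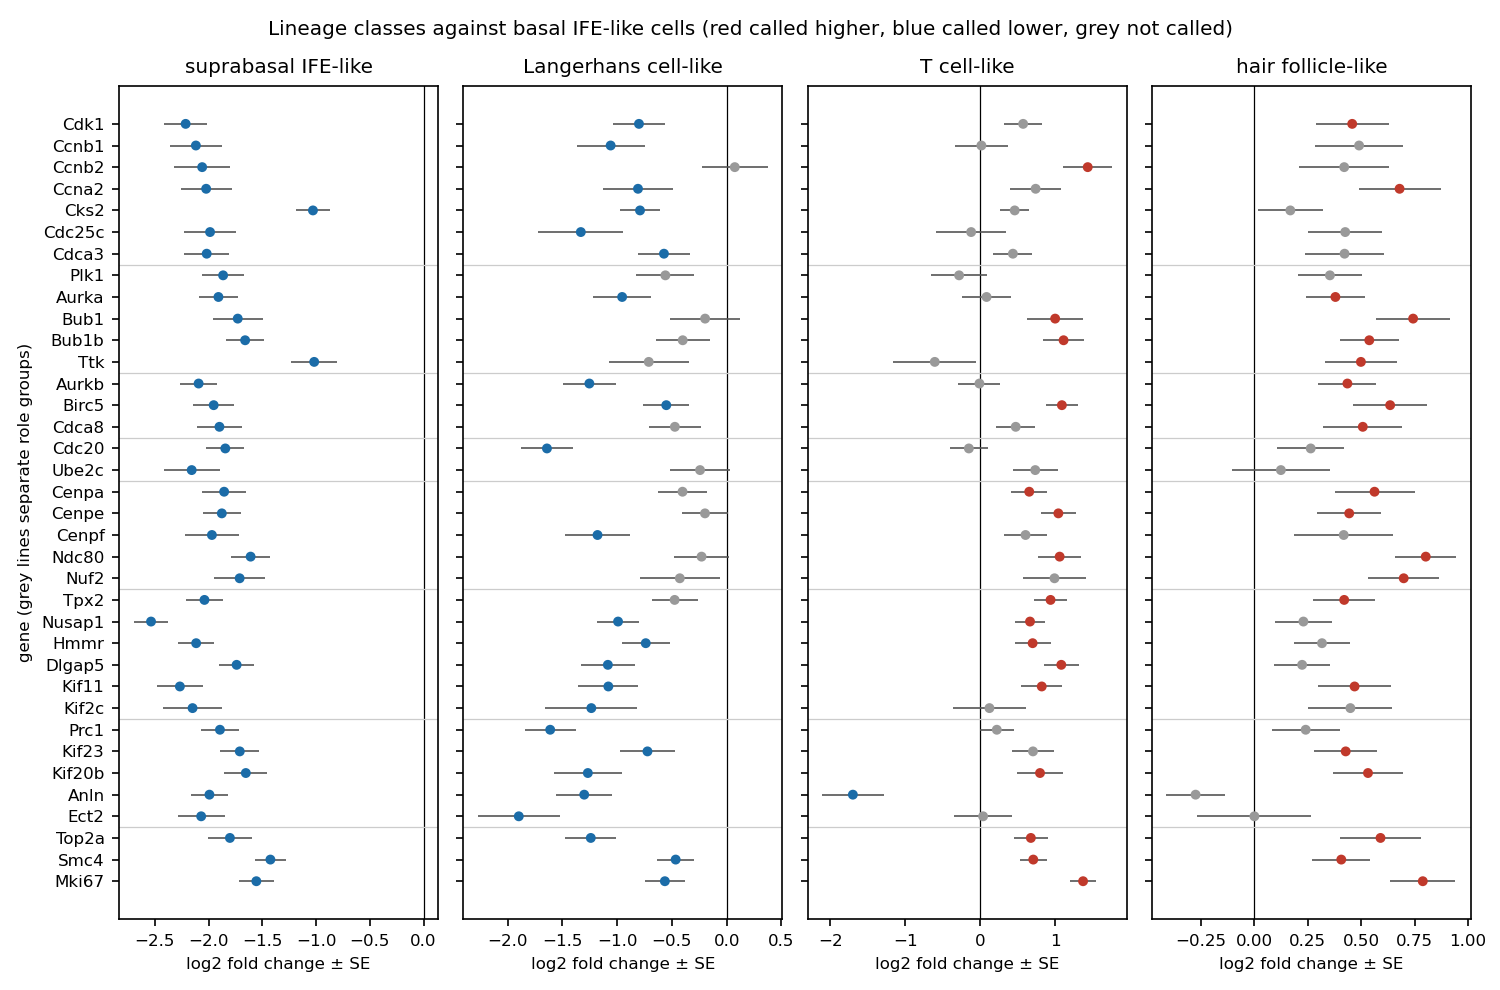
Log2 fold change with its SE of each of the 36 genes in suprabasal IFE-like, Langerhans cell-like, T cell-like and hair follicle-like cells against basal IFE-like cells (UMI sums of 2 mice, edgeR), with the x axis of each panel on its own scale. All points of the suprabasal panel lie left of 0, those of the Langerhans cell-like panel nearly all, and the T cell-like and follicle panels lie mostly right of 0 with Anln farthest to the left.

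Melanocyte-like cells were close to basal IFE-like cells, with 2435 and 2267 CPM for the sum of the genes. Only 1 of 36 was called higher and 7 lower, against 26.5% and 21.9% of all genes, and the median was -0.11 against 0.02. Nuf2 was the higher one, with 8.03 and 7.47 CPM and 14.7 and 11 CPM (0.61 ± 0.20 (SE), adjusted p = 0.0129). The lower ones were Kif23, a motor of the central spindle with 37.1 and 34.5 CPM and 24.6 and 25.8 CPM (-0.59 ± 0.17 (SE), adjusted p = 0.00730), Kif11 (-0.52 ± 0.19 (SE), adjusted p = 0.0286), Cdc20, Cdca3, Ect2, Nusap1 and Anln. The balance moved with the clustering and with the mitochondrial limit. Without integration 20 were higher (background 27%), and with the 5% limit 22 were lower after clustering again (background 15.7%) and 25 in the same classes (background 13.8%). Without integration the genes summed to 2435 and 2273 CPM in melanocyte-like and 1469 and 1509 CPM in basal IFE-like cells. With cells under 5% clustered again, the sums were 2446 and 2565 CPM against 4781 and 3833 CPM. Of melanocyte-like cells with at least 5 of the genes, 19.5 and 21.7% were called doublets, against 4.24 and 7.84% of the others. Their medians were 14353.5 and 14229.5 UMIs, against 7399 and 8302 in the others. One of the clusters of the class had 40.2 and 43.9% called doublets and 2028 and 2900 CPM of Krt14, and the other 0.299 and 0% and 194 and 323 CPM, at nearly the same summed level of the 36 genes (2461 and 2428 against 2420 and 2145 CPM).

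The granular-like class, named from Lce and other cornified envelope genes, had levels of the 36 genes near those of basal IFE-like cells. Its sums were 3099 and 2796 CPM, and 54% and 46.9% of its 50 and 64 cells had at least 5 of the genes. Only Cdc25c was called, with 13.7 and 15.1 CPM in basal and 26 and 36.5 CPM in granular-like cells (1.12 ± 0.35 (SE), adjusted p = 0.0405, on 9 and 24 UMIs), against 7.71% of all genes higher and 3.22% lower. Granular markers summed to 25878 and 9005 CPM in the cells with at least 5 of the genes and to 69000 and 81761 CPM in the others. The markers were thus lower in the cells with at least 5 of the genes in both mice, and present in both kinds of cell. With the 5% limit the median log2 fold change went from 0.25 to -1.17, with 13 genes lower and 0 higher (background 2.2% and 5.67%). With a block for the mouse, 4 of the genes passed as higher (background 8.4%), adding Cenpe, Cenpa and Mki67, and without filtering on low counts 6 (background 5.68%).

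**Figure D3:**
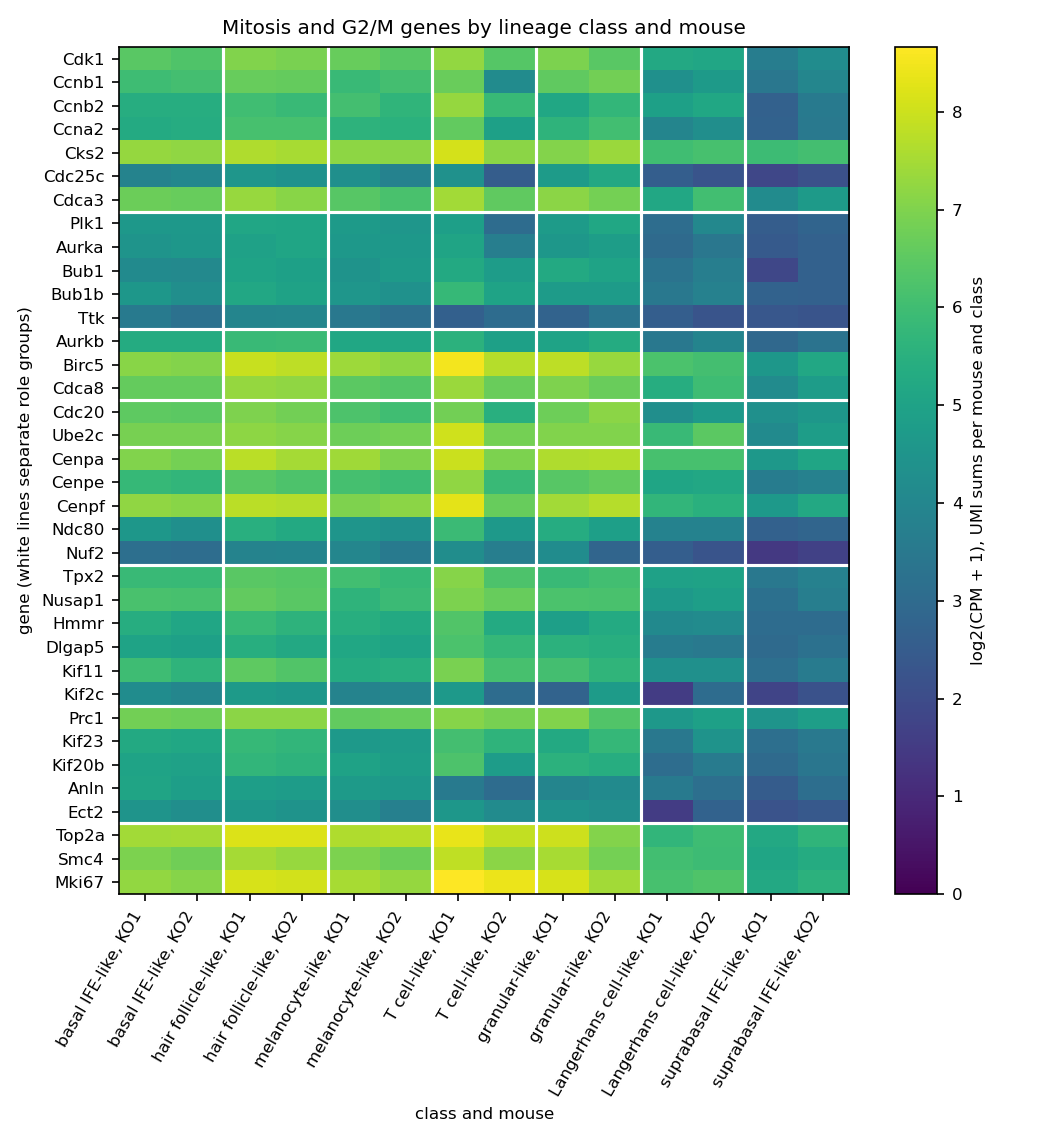
Level of each of the 36 genes, log2(CPM + 1), in 7 lineage classes and both mice, with genes ordered by role. The Langerhans cell-like and suprabasal IFE-like columns on the right are darker in nearly every row, and the KO mouse 2 column of the T cell-like class is darker than its neighbour.

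Dividing cells of the follicle and of the IFE were then set against each other in the first clustering. The dividing IFE-like class was 1 cluster (333 and 635 cells), with 83.7% of cells scored in G2/M and 9.71% in S phase. The dividing follicle-like class held 3 clusters. The cluster called G2/M-led here (843 and 1153 cells) had 78.8% in G2/M and 21.2% in S phase. Another had 52.2% in G2/M and 43.7% in S phase, and 5590 and 5542 CPM for the sum of the 36 genes. The last had 34.4% in G2/M and 50.9% in S phase, and 4531 and 3523 CPM. The classes thus differ in their mix of phases, and the part of this mix in the differences below was not tested. In this comparison 19 of 36 were lower in the follicle and none higher, against 12.5% lower and 12.9% higher of 13677 genes, with a median log2 fold change of -0.43 against 0.02. Cdc20 had 368 and 340.4 CPM in dividing IFE-like and 221 and 188 CPM in dividing follicle-like cells (-0.82 ± 0.15 (SE), adjusted p = 0.000250). Ect2 had 77.7 and 62.4 CPM and 42.8 and 36.9 CPM (-0.83 ± 0.16 (SE), adjusted p = 0.000275), and Ube2c 477 and 479 CPM and 303 and 274 CPM (-0.75 ± 0.25 (SE), adjusted p = 0.0311). In each of these the values of the mice did not overlap between the classes. That held for 30 of the 36 genes, and the share of all genes without overlap was not counted.

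Other genes were not called. Mki67, with 539.8 and 476 CPM and 552 and 499 CPM, had a 95% interval of -0.36 to 0.41, Ndc80 of -0.25 to 0.35, Bub1 of -0.40 to 0.30 and Top2a of -0.46 to 0.29. Of 30 replication genes, 23 were higher in the dividing follicle-like class and none lower (background 12.9% and 12.5%), with a median of 0.58. With the 5% limit and the same classes, also an alternative added after the data had been seen, 7 of the 36 were called lower (background 8.02%).

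With only the G2/M-led follicle-like cluster, an alternative chosen after the clusters had been seen, 4 of 36 genes were lower, a share of about the background (9.86%), and the median was -0.16. They were Cdc20 (-0.64 ± 0.15 (SE), adjusted p = 0.00343), Anln (-0.55 ± 0.13 (SE), adjusted p = 0.00361), Ect2 (-0.56 ± 0.16 (SE), adjusted p = 0.0121) and Cdc25c (-0.45 ± 0.16 (SE), adjusted p = 0.0437). In that cluster the levels of Cdc20 were 240.2 and 221 CPM, those of Ect2 50.2 and 45.7 CPM and those of Anln 64.8 and 59.6 CPM. Ube2c was not called there (-0.43 ± 0.25 (SE), adjusted p = 0.270).

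**Figure D4:**
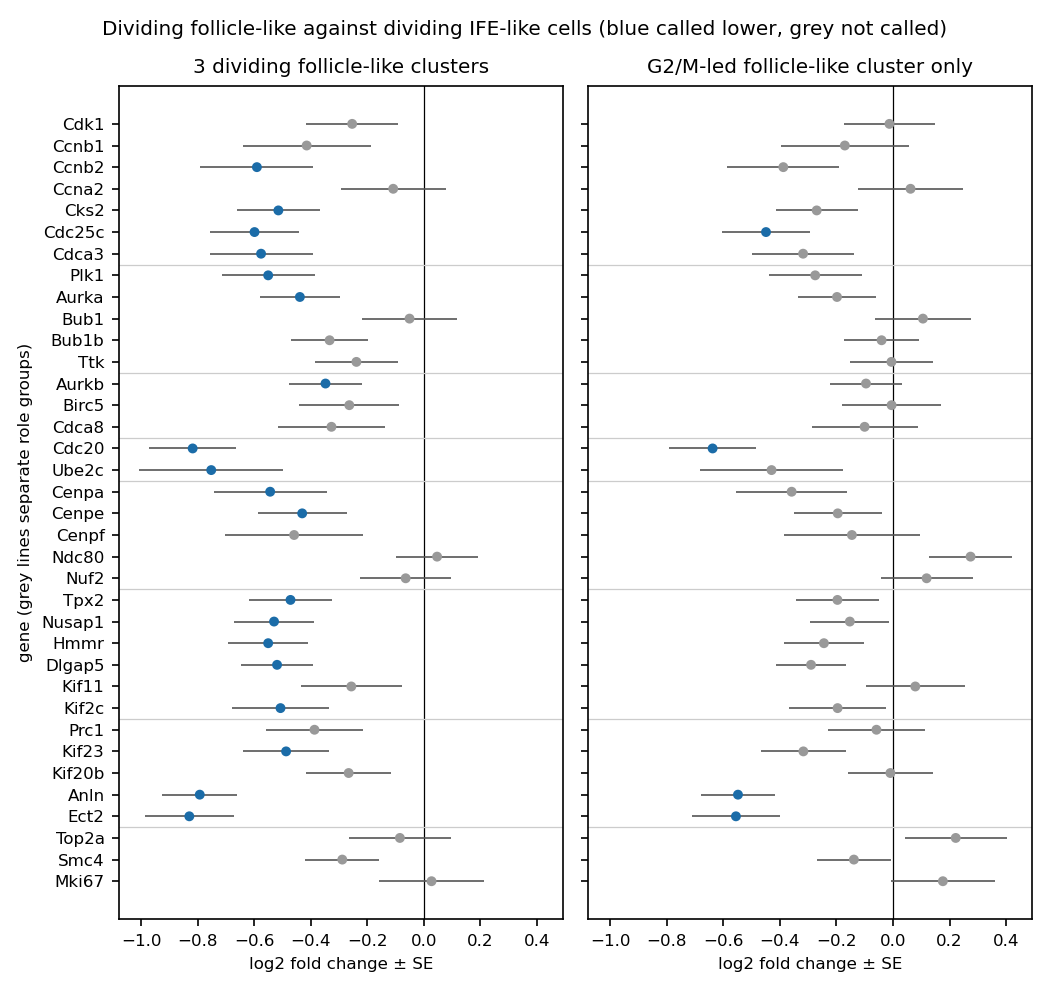
Log2 fold change with its SE of the 36 genes in dividing follicle-like against dividing IFE-like cells, with all 3 dividing follicle-like clusters (left) and with the G2/M-led one alone (right). Most points move toward 0 on the right, where Cdc20, Anln, Ect2 and Cdc25c stay called lower.

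The 36 genes were also counted cell by cell. At least 5 of the 36 were detected in 30.5% and 33.3% of basal IFE-like cells, and these cells held 94.9% and 94.3% of the UMIs of the 36 genes in the class. The shares were 56.9% and 58.4% in hair follicle-like, 55.8% and 55.3% in T cell-like, 35.2% and 34.4% in melanocyte-like, 15.9% and 22.8% in Langerhans cell-like and 16.6% and 19.8% in suprabasal IFE-like cells. The exact 95% binomial interval for the T cell-like cells of KO mouse 2 was 38.3 to 71.4%, and such intervals cover counting error only. The cut picks cells by the same 36 genes, so that the cells above it hold most UMIs of these genes is largely set by the cut. It is a point on a range and not a border between types, with 352 basal IFE-like cells at 4 genes and 205 at 5.

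Depth moved these shares. Suprabasal cells had medians of 16174 and 14729 UMIs, and basal cells 9947 and 10007. Thinned to 3000 UMIs per cell, the share with at least 5 genes was 3.85% and 5.28% in suprabasal, 18.1% and 19% in basal, 38.3% and 37.6% in follicle, 22.2% and 20.2% in melanocyte-like, 7.64% and 6.74% in Langerhans cell-like and 44.2% and 26.3% in T cell-like cells. The suprabasal cluster with much Krt10 and little Krt14 gives a background for this count, with 22.1 and 25.2% of its cells at medians of 25452 and 24622 UMIs and 1.48 and 2.0% after thinning. Cells under 3000 UMIs were left out of the thinned shares. Among them were 22 and 17 of the 50 and 64 granular-like cells. Granular-like cells with fewer than 5 of the genes had medians of 2221 and 8414.5 UMIs, against 7509 and 10560 in the others. The thinned share of that class is thus one of its deeper cells.

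**Figure D5:**
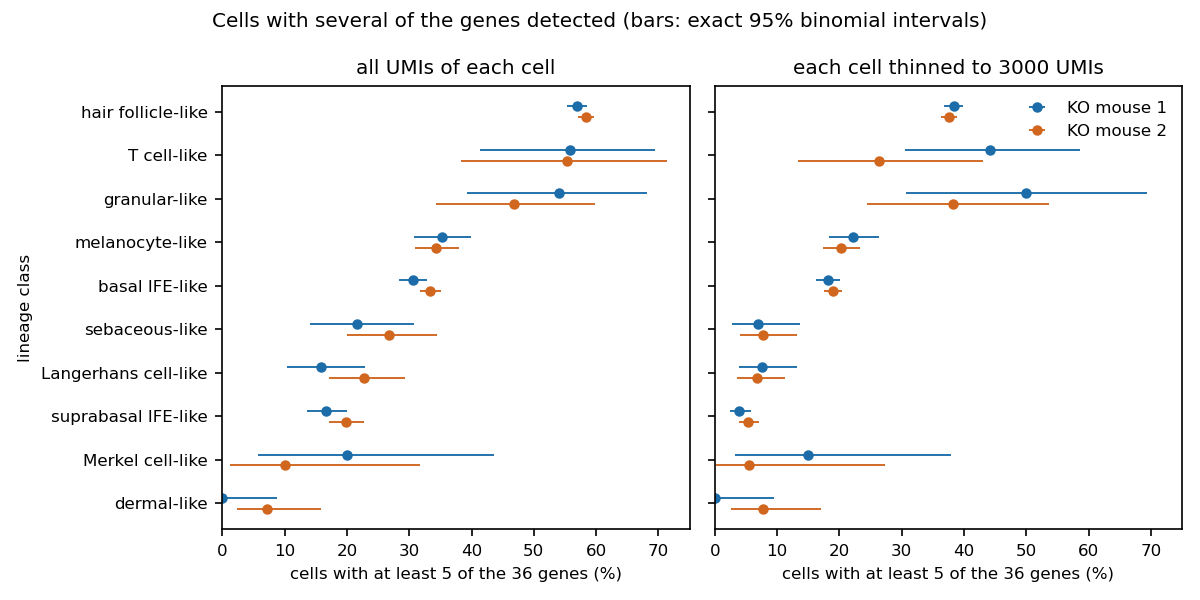
Share of cells (%) with at least 5 of the 36 genes detected in each lineage class, blue for KO mouse 1 and orange for KO mouse 2, with exact 95% binomial intervals, from all UMIs (left) and after thinning to 3000 UMIs per cell (right). Hair follicle-like, T cell-like and granular-like cells lie highest in both panels. Suprabasal IFE-like, Langerhans cell-like, sebaceous-like and dermal-like cells lie under 10% in both mice after thinning. Cells under 3000 UMIs are left out on the right, 22 and 17 of the 50 and 64 granular-like cells among them.

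Across thinned cells of 1 mouse and lineage, as a description, the genes varied together. Among basal IFE-like cells the median of all pairwise correlations was 0.30 (1701 cells) and 0.27 (2954 cells), and the closest pair was Cenpf and Ube2c (r = 0.74 and 0.72). Birc5 followed the sum of the other genes most closely (r = 0.74 and 0.71). The same pair and the same gene led in hair follicle-like cells (r = 0.64 and 0.62 for the pair). In melanocyte-like cells Cenpa and Birc5 were the closest pair in KO mouse 1 (r = 0.63), and Cenpf and Ube2c in KO mouse 2 (r = 0.64). There Birc5 followed the sum of the others most closely in KO mouse 1 and Cenpf in KO mouse 2. Genes with few UMIs, such as Nuf2 and Ttk, came last, but in melanocyte-like cells of KO mouse 1 Anln did. All cells of a point share a library, and sparse counts lower such values.

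The other genes of the cell cycle moved with the 36 in some comparisons and not in others. Of 58 further mitosis genes, 55 were lower and 1 higher in suprabasal cells (background 20.4% and 24.3%). Among them Racgap1, a regulator of cytokinesis, was at -2.03 ± 0.18 (SE), adjusted p = 3.20e-09, and Smc2, the partner of Smc4, at -1.77 ± 0.17 (SE), adjusted p = 1.12e-08. In Langerhans cell-like cells 3 of 58 were higher and 36 lower (background 29.3% and 20.7%). In hair follicle-like cells 28 of 58 were higher and 0 lower (background 18.5% and 15.5%). All 30 replication genes were lower in suprabasal cells (background 20.4%). Dut, which clears dUTP, was at -1.60 ± 0.19 (SE), adjusted p = 2.15e-07, and Rrm1, a subunit of ribonucleotide reductase, at -1.45 ± 0.16 (SE), adjusted p = 1.25e-07.

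Regulators were less uniform. Of 13 regulators of G2/M transcription, 6 were lower in suprabasal cells (background 20.4%). Foxm1, an activator of many of the 36 genes, was among them (-2.00 ± 0.23 (SE), adjusted p = 1.52e-07), as was Rbl1, a pocket protein (-1.54 ± 0.17 (SE), adjusted p = 7.92e-08), whereas Nfyc, a subunit of NF-Y, was at 0.06 ± 0.11 (SE), adjusted p = 0.682. In dividing follicle-like against dividing IFE-like cells Foxm1 was the only one of the 13 called, as lower (-0.50 ± 0.18 (SE), adjusted p = 0.0410), a share under the background of 12.5%, and the median of the 13 was 0.15. Of 12 genes of exit and inhibition, 5 were lower and 1 higher in suprabasal cells (background 20.4% and 24.3%). Fbxo5, an inhibitor of the anaphase-promoting complex, was lower there (-2.06 ± 0.18 (SE), adjusted p = 3.76e-09). In the dividing follicle-like class 6 of the 12 were lower and 1 higher (background 12.5% and 12.9%). Fzr1, which activates that complex after Cdc20, was lower there (-0.61 ± 0.12 (SE), adjusted p = 0.000391), and so was Cdc25b, a phosphatase that starts CDK1 (-0.59 ± 0.17 (SE), adjusted p = 0.00974).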

How the data were processed

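Single-cell RNA was measured in 1 library from each of 2 Chrm3 KO mice at postnatal day 0. The authors deposited UMI counts per gene and barcode, made with Cell Ranger 3.0.2 on mm10. The counts were used as deposited. A UMI stands for 1 molecule, and the exact 95% binomial intervals cover counting error only. The filter on cells, at 900 to 7700 detected genes and less than 10% of UMIs from mitochondrial genes, kept 70.3% and 74.9% of barcodes. Clusters were made with Seurat 5.3.0 in R 4.3.3, with 2000 variable genes, integration of the mice, 30 dimensions and a resolution of 0.8. Names came from the markers found among the 30 leading genes of a cluster, by the list with most of them, where at least 3 markers of the list were enriched by over 0.5 (log2), and a cluster counted as dividing where a list of other cell cycle genes was enriched by as much, limits set after the clusters had been seen. Scrublet scores from scanpy 1.11.5 above 0.2, a threshold set after the scores had been seen because the automatic one made nearly no calls in KO mouse 1, called 2.47% and 4.21% of cells doublets, which stayed in except in an alternative.

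UMI counts were summed per mouse and class and tested with the quasi-likelihood test of edgeR 4.0.16 (two-sided, TMM, Benjamini-Hochberg over all genes tested), in 1 fit over 10 lineage classes and 1 over 12 classes of the first clustering, with 10 and 12 residual degrees of freedom and summed counts from 184635 to 76805286 UMIs in the lineage fit. The smallest sum was that of the Merkel cell-like class. Sums of a mouse come from the same animal, so they are paired. The deviations of a mouse correlated between classes by -0.01 to 0.37 (median 0.03 over 45 pairs of classes), and a fit with the mouse as a block was an alternative. The tests were checked on simulated counts. Alternatives were DESeq2 1.42.0, its size factors, no filter on low counts, other clusterings, doublets left out, a 5% mitochondrial limit and each mouse alone. The 36 genes and the other lists, with up to 4 examples each by level in dividing IFE-like cells, were chosen with earlier results of these data known. Of the 36 identifiers, 36 matched GENCODE M21. No gene was left out of the tests of the 36 by the filter. Promoter sequences are from RefSeq, and figures were drawn with matplotlib 3.10.9.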

Additional observations from a re-analysis of the deposited data

Results flagged for a closer look

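Transcripts of the 36 genes were also found in cells that the comparisons did not use. In barcodes removed by the filter on genes and mitochondrial UMIs, the genes summed to 2166 CPM in KO mouse 1 and 1963 CPM in KO mouse 2, against 2792 and 2638 CPM in the kept cells. In 1 cluster that no marker list named, led by Ccl27a and Pou3f1, they summed to 2372 CPM in KO mouse 1 and 2291 CPM in KO mouse 2, close to the basal IFE-like class (2413 and 2278 CPM). There were no control samples for these values. With 2 samples in each class, no test for a single sample that stands apart could be run.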

How the results depend on the processing

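In suprabasal IFE-like cells all 36 genes stayed lower in each alternative with a test, except that 35 were called without integration. 3869 genes of all were called there with the 5% limit in the same classes, which, like the comparison with the G2/M-led follicle-like cluster alone, was chosen after seeing the data. With cells under 5% mitochondrial UMIs clustered again, the counts of the 36 genes higher and lower and of all genes called were 0 and 7 and 2113 for the follicle, 0 and 22 and 3883 for melanocyte-like, 0 and 3 for T cell-like and 0 and 13 and 907 for granular-like cells. The medians were -0.49 (follicle), -0.039 (T cell-like) and -1.17 (granular-like). Single genes were checked where they had the largest or smallest change of their role group, or a call unlike the rest. A sign is listed as changed only where such a gene was called in the main or the alternative fit. Changed signs in the follicle were Ube2c -0.96, Cdc20 -0.70, Birc5 -0.31, Ccna2 -0.21, Aurkb -0.51, Bub1 -0.080, Cdk1 -0.34, Plk1 -0.70, Tpx2 -0.49, Kif11 -0.28, Kif20b -0.30, Kif23 -0.47 and Smc4 -0.31, in melanocyte-like cells Birc5 -0.72 and Nuf2 -0.17, in Langerhans cell-like cells Ccnb2 -0.85 and in granular-like cells Ube2c -3.08, Cdc20 -1.25 and Cdc25c -1.04 (log2). In that setting no dividing IFE-like class formed, so it gave no value for dividing cells. With the same classes kept, the counts were 0 and 3 and 1775 (follicle), 0 and 25 and 3649 (melanocyte-like), 0 and 3 (T cell-like) and 0 and 6 and 744 (granular-like), with 7 of the 36 and 1971 of all genes for dividing cells, and the medians were -0.51 (follicle), -0.13 (T cell-like) and -1.11 (granular-like). Changed signs were Cdc20 -0.79, Birc5 -0.28, Ccna2 -0.19, Aurkb -0.45, Bub1 -0.083, Cdk1 -0.30, Tpx2 -0.49, Kif11 -0.27, Kif20b -0.27, Kif23 -0.52 and Smc4 -0.31 in the follicle, Birc5 -0.86 and Nuf2 -0.34 in melanocyte-like, Ccnb2 -0.97 in Langerhans cell-like, Bub1 -0.034 in T cell-like and Ube2c -2.08, Cdc20 -1.27 and Cdc25c -0.43 in granular-like cells. Without integration 35 genes were higher in the follicle, 20 higher and 0 lower in melanocyte-like cells (median 0.58), 4 lower in Langerhans cell-like, 26 higher in T cell-like and 22 higher in granular-like cells, and signs changed for Cdc20 0.035, Cdca3 0.095, Nusap1 0.30, Aurkb 0.44, Kif11 0.20 and Ttk 0.54 in melanocyte-like cells and Top2a 0.91 in granular-like cells. With lineages from the clustering that kept cell cycle genes, 13 genes were higher in the follicle, 0 in melanocyte-like and 9 in T cell-like cells, and in granular-like cells 0 higher and 1 lower (median -0.18). At a resolution of 1.2 melanocyte-like cells had 3 higher and 2 lower (median 0.025) and granular-like cells 5 higher and 1 lower. DESeq2 called 4 lower in melanocyte-like and 4 higher in granular-like cells, where its size factors gave 2, no filter 6 and doublets left out 2. Without doublets 8 were higher in T cell-like cells. With the mouse as a block no call was lost, 1 gene became lower in the follicle, and 2 were higher in melanocyte-like and 4 in granular-like cells. Elsewhere it added calls (4 for dividing cells) and changed no other call. The G2/M-led follicle-like cluster alone gave 4 lower. Where no share over all genes is given for a setting, a count shows only how it moved with that setting. Such a count cannot be set against a background. With 1 mouse left out there is no test. Kif20b was then between -0.25 and 1.12 in T cell-like cells, and the granular-like median between -0.031 and 0.20.

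Mean shares of cells with at least 5 genes were 18.5% (basal IFE-like), 38% (follicle-like), 21.2% (melanocyte-like), 7.19% (Langerhans cell-like), 35.3% (T cell-like), 4.56% (suprabasal IFE-like) and 44.1% (granular-like) after thinning. With at least 3 genes they were 50.7% (basal IFE-like), 71.3% (follicle-like), 51.7% (melanocyte-like), 49.2% (Langerhans cell-like), 74.9% (T cell-like), 44.9% (suprabasal IFE-like) and 68.4% (granular-like), and with at least 10 20.6% (basal IFE-like), 43.3% (follicle-like), 22.7% (melanocyte-like), 8.72% (Langerhans cell-like), 34.3% (T cell-like), 7.47% (suprabasal IFE-like) and 26.1% (granular-like). With the 5% limit they were 45.3% (basal IFE-like), 47.8% (follicle-like), 30.9% (melanocyte-like) and 56.9% (T cell-like), without doublets 31.1% (melanocyte-like), 13.8% (Langerhans cell-like), 53.7% (T cell-like) and 15.1% (suprabasal IFE-like), at a resolution of 1.2 29.2% (basal IFE-like) and 55.1% (follicle-like) and without integration 22.1% (basal IFE-like). The cause of these changes was not tested. For genes taken singly, 1246 of 1488 values counted as unchanged. A value counted as changed where the call changed, or where the sign changed in a gene called in the main or the alternative fit. Genes called in neither fit could thus change sign unseen. With 1 mouse left out there was no call to compare. The T cell-like and granular-like classes held few cells, so single genes there rested on few UMIs.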
